A study of Mus musculus with 6 samples.

Results

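Type I interferon-stimulated genes were read in RNA-seq libraries labelled as mouse liver sinusoidal endothelial cells (LSECs), the endothelial cells that line the hepatic sinusoids. The 48 genes are well-known targets of type I interferon, were listed by name and were found by their symbols. The rule itself uses no measured value, but the list was drawn up with earlier results of these data known, so the comparisons with all genes below are descriptions. All 48 were among the 60832 genes of the count table, and all 48 were among the 15474 genes with enough counts to be tested.

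The LSECs came from mice carrying liver metastases of colorectal cancer (CRCLM) grown from HCT116, a human colorectal cancer cell line. There were 3 libraries from xenografts sensitive to bevacizumab, an antibody against VEGF-A, and 3 from xenografts resistant to it. The paper proposes that sustained bevacizumab treatment may change the LSECs of co-opted sinusoidal vessels, and the comparison addressed this. Its methods describe cells taken from digested liver metastases and name no selection for such vessels. By the study's methods, resistant HCT116 xenografts were obtained by repeated bevacizumab injections and vehicle mice received IgG, but the labels do not say what the mice of the sensitive libraries were given. The cells were captured with anti-CD146 beads, and the labels state 24 h of culture for every library. The labels do not give the mouse strain, age or sex. The methods list male BALB/c nude mice, which lack mature T cells, obtained at a few weeks of age. They name such mice as hosts of engineered HCT116 tumors. Nothing in the labels says that the libraries came from separate animals, so the spread between them may be partly technical. Counts per library were 17599326 to 20726684, and 3 counts corresponded to 0.145 to 0.170 CPM (a gene's share of all counts in its library), a floor for counting error only. The label was checked against markers, and 15 LSEC markers summed to 1106 to 2667 CPM. That sum rested largely on Mrc1, Stab1 and Cd36, with means over all libraries of 727, 583 and 388 CPM. Clec4g, Gpr182 and Kdr were the lowest of the list, with means of 2.85, 3.01 and 7.34 CPM. By contrast, 16 macrophage and Kupffer cell markers summed to 24982 to 38280 CPM, and Mcam, which encodes the capture antigen CD146, had 6 to 79 counts in a library. The libraries therefore held much RNA of macrophage markers, and LSECs stands below for the labelled libraries.

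Type I interferons (IFN-α and IFN-β) are secreted after cells sense viral or misplaced nucleic acid. They bind the receptor made of Ifnar1 and Ifnar2, whose kinases Jak1 and Tyk2 then phosphorylate Stat2. With Irf9, Stat2 is part of a complex that binds the interferon-stimulated response element (ISRE) in promoters and switches on a large set of antiviral genes. In the liver, LSECs and the neighboring Kupffer cells, the resident macrophages, are both known to mount this response.

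Promoters of 5 genes are shown for the sequence by which the group is known, for which the window of Trim25 held no match. Of the 48 genes, 36 matched a promoter window in RefSeq (GRCm38.p6), taken from 250 bases before to 50 bases after a start site. The core of the ISRE was searched as GAAANNGAAA on both strands, and overlapping matches were each counted. It was found for 19 of the 36 genes, or 52.8%, against 3.99% of the 27025 genes in the whole promoter table and 3.89% of the tested genes. GAS, the element known for the response to IFN-γ and searched as TTCNNNGAA, was found for 7 of the 36 genes (19.4%), against 9.55% of all genes. Both motifs lay in a window of Bst2, Eif2ak2, Ifitm3 and Oas1a, and their matches shared bases in Bst2 and Ifitm3. The 250 bases before the start site are printed 5′ to 3′ on the strand of the gene, and capitals mark matches to the ISRE core on either strand.

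Ifit3 and Ifit1, neighbors on chromosome 19, each hold a pair of matches. The first bases of these matches lie 156 and 122 bases before the start site in Ifit3 and 104 and 85 bases before it in Ifit1. Isg15 holds 3 overlapping matches that begin 78, 72 and 66 bases before its start site, and Rsad2 holds 1 that begins 120 bases before it. Trim25, the only gene of the 48 whose fitted level was higher in the resistant libraries, is shown for contrast, and no match was found in its window. The windows are chr19:34583279-34583528 (plus strand) for Ifit3, chr19:34640639-34640888 (plus) for Ifit1, chr4:156200819-156201068 (minus) for Isg15, chr12:26456453-26456702 (minus) for Rsad2 and chr11:88999153-88999402 (plus) for Trim25.
Ifit3: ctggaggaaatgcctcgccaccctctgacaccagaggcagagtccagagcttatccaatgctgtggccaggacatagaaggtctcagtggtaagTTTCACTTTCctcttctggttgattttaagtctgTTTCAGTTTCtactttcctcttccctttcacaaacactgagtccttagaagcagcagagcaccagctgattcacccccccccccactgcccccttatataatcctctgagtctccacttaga
Ifit1: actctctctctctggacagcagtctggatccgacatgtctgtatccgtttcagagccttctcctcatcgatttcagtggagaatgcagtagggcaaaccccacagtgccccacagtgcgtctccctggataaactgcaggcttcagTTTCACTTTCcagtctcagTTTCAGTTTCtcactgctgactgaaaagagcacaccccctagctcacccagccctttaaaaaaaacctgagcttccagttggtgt
Isg15: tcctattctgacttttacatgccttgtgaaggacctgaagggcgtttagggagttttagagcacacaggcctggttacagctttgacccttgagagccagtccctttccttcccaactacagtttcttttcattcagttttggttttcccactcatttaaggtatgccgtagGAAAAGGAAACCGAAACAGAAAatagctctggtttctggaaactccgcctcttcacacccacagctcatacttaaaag
Rsad2: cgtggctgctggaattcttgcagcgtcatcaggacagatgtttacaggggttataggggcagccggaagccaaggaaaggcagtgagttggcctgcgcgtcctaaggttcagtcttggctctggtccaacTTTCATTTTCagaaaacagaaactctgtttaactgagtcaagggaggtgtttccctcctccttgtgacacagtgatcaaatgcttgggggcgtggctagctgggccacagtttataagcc
Trim25: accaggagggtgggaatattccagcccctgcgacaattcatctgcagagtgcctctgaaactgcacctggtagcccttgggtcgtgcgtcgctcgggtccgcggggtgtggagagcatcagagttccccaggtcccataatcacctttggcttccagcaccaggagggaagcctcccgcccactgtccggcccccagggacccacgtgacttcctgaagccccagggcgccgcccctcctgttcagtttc

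The fitted levels of 47 of the 48 genes were lower in the resistant libraries, against 49.2% of all tested genes. The median log2 fold change of the 48 was -0.80, beside 0.01 over all tested genes. Summed over the 48 genes, the level was 5748, 5796 and 3376 CPM in sensitive libraries 1, 2 and 3 and 3670, 3678 and 2034 CPM in resistant libraries 1, 2 and 3. The first 2 sensitive libraries were therefore the highest and resistant library 3 the lowest, while sensitive library 3 lay below resistant libraries 1 and 2, so that the groups overlapped. The group means were 4973 ± 1383 CPM (SD, n = 3) and 3127 ± 947 CPM (SD, n = 3), a ratio of 1.59. On the log2 scale the difference was -0.67, against an SD between replicates of 0.470. In bulk RNA, fewer cells of a type that express these genes and less RNA per cell cannot be told apart.

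None of the 48 genes passed the test. With edgeR's quasi-likelihood test, 0 had a Benjamini-Hochberg adjusted p under 0.05, and the smallest adjusted p was 0.940; of all tested genes 0% passed. At an unadjusted p under 0.05 there were 17 genes (35.4%), each lower in the resistant group, against 2.54% of all tested genes that were lower at this level and 3.08% in either direction. DESeq2's Wald test gave 0 of the 48 after adjustment, with a smallest adjusted p of 0.0736, and 19 before it, against 0.155% and 4.73% of all genes. With limma-voom there were 0 and 12, the latter against 2.48% of all genes. The count of 17 turned on single libraries. It was 7, 6 and 27 without sensitive replicate 1, 2 or 3 in turn, against 3.76%, 3.96% and 6.53% of all tested genes. Without resistant replicate 1, 2 or 3 it was 9, 11 and 2, against 3.91%, 1.51% and 1.03%. The share over all genes thus also moved with the library left out. The median log2 fold change was -0.48 without resistant replicate 3 and -1.04 without sensitive replicate 3, the ends of its range when a single library was left out.

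For 8 genes (16.7%) the 3 resistant libraries all lay below the 3 sensitive ones after scaling with TMM factors, against 4.38% of all tested genes, and for 0 they lay above, against 4.64%. These were Ifit3, Ifi44, Rsad2, Isg20, Ifit3b, Slfn5, Sp100 and Tor3a. In CPM on library totals the count was 6, since Isg20 and Tor3a then overlapped. The share over all tested genes was not computed for that scaling. Without sensitive replicate 3 the number of separated genes was 34, and without resistant replicate 1 or 2 it was 19 or 15. A separated gene stays separated when a library is left out, so this number could only stay at 8 or rise. The share over all tested genes was not computed for these smaller sets, so the rise is not read as a result.

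**Figure D1:**
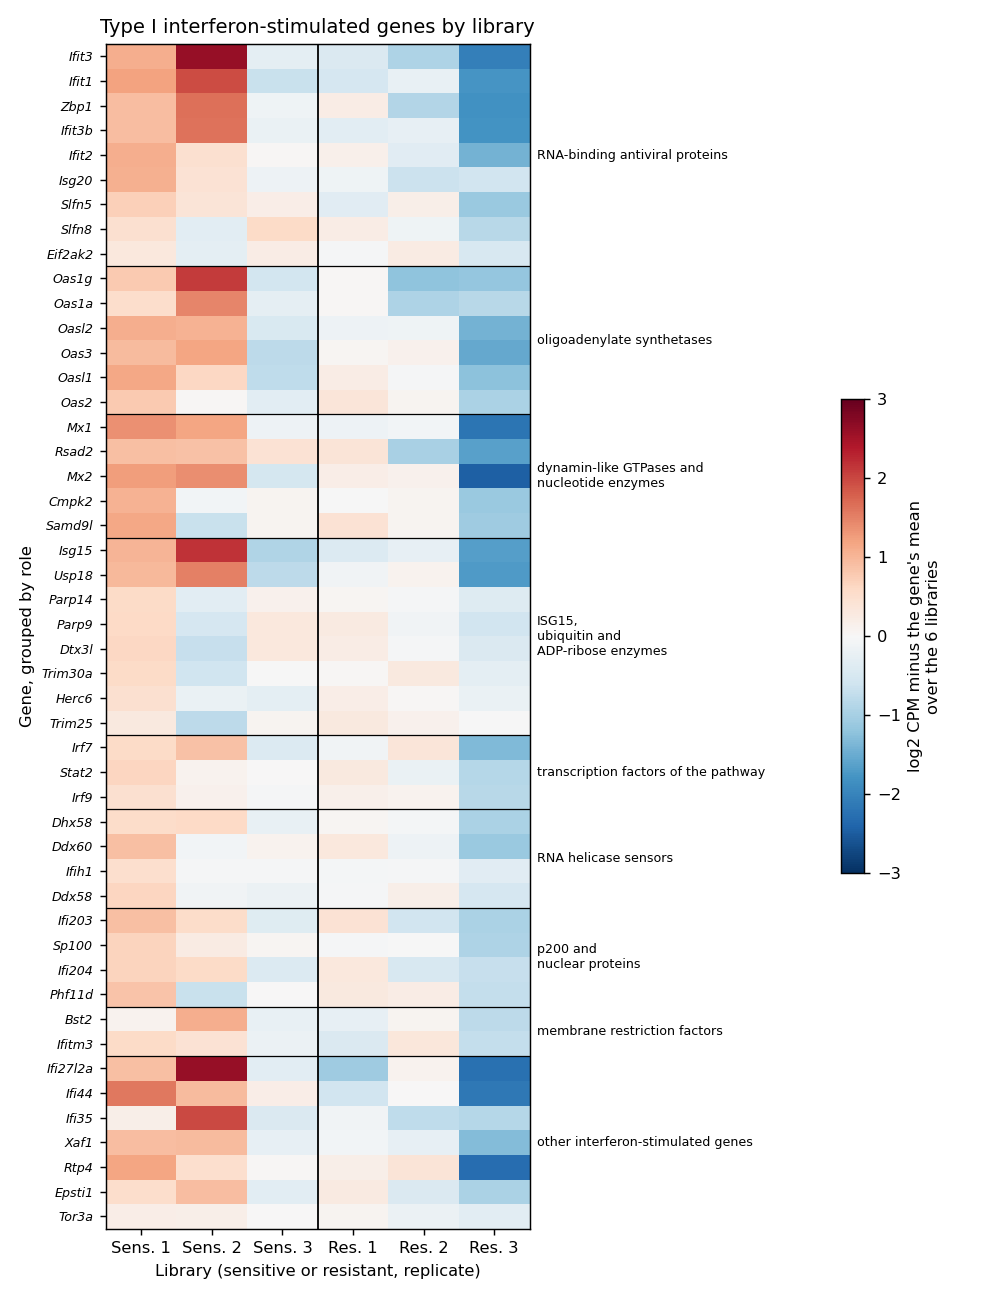
Heat map of the 48 genes (vertical axis, grouped by role) in the 6 libraries (horizontal axis), colored by log2 CPM minus the gene's mean over the 6 libraries. Sensitive libraries 1 and 2 hold most of the high values, and resistant library 3 is the lowest in 41 of the 48 genes.

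The 48 genes varied together across libraries, so the counts over them given above are not counts of independent results. In TMM-scaled log2 CPM, the median of the 48 genes stood 0.69 and 0.71 above the gene's own mean in sensitive libraries 1 and 2, and -0.16 from it in sensitive library 3. In resistant libraries 1, 2 and 3 the medians were -0.05, -0.02 and -0.98, whereas the median over all tested genes stayed between -0.07 and 0.05 in every library. Sensitive library 1 or 2 was the highest for 45 of the 48 genes (22 and 23), beside 10.6% and 33.3% of all tested genes. Resistant library 3 was the lowest for 41 of them, but for only 12.8% of all tested genes. Pearson's r between a gene and the mean of the other 47 over the 6 libraries, a description in which all points share their libraries, had a median of 0.91 and was over 0.8 for 37 genes. Mx1, Oasl2, Xaf1 and Dhx58 followed the others most closely (r = 0.99 each), and Trim25 (-0.33), Trim30a (0.26) and Dtx3l (0.28) least.

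Among the RNA-binding antiviral proteins, 7 of 9 genes had an unadjusted p under 0.05 and the median log2 fold change was -1.05. Of all tested genes 3.08% were under this level, the share to set beside the count of each role below. The roles hold few genes, and these vary together, so the counts only describe each role. Of the IFIT proteins, Ifit1 is known to bind viral RNA that lacks the host's cap methylation. Ifit3 (chromosome 19 of GRCm38, 34583531 to 34588731) had the smallest unadjusted p of the 48. It stood at 24.0, 69.4 and 9.29 CPM in sensitive libraries 1, 2 and 3 and at 8.35, 6.02 and 2.76 CPM in resistant libraries 1, 2 and 3, an order kept in the values below. All resistant libraries were thus below all sensitive ones, although sensitive library 3 was close to resistant library 1. The means were 34.3 ± 31.3 and 5.71 ± 2.81 CPM (SD, n = 3), and the log2 fold change was -2.73 (SE 0.813).

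Ifit1 (chromosome 19, 34640871 to 34650009) had 28.1, 47.6 and 7.64 CPM in sensitive and 8.64, 10.5 and 3.59 CPM in resistant libraries, with a log2 fold change of -1.98 (SE 0.721). Here sensitive library 3 fell within the resistant range. Ifit3b, the near copy of Ifit3, stood at 4.43, 7.22 and 2.04 CPM against 1.88, 1.97 and 0.676 CPM (log2 fold change -1.70, SE 0.662). Of the 100-base windows of Ifit3 transcripts in GENCODE M21, 31.7% also occur in Ifit3b, so reads may have been shared between these genes. Ifit2 had a log2 fold change of -1.05 (SE 0.426).

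Zbp1, a sensor of left-handed Z-form nucleic acid that can trigger necroptosis, was measured at 55.1, 90.9 and 26.4 CPM in sensitive and 33.6, 15.8 and 8.17 CPM in resistant libraries (log2 fold change -1.71, SE 0.634). Isg20, an exoribonuclease, was low throughout, at 9.57, 6.14 and 4.09 CPM against 4.15, 2.93 and 3.07 CPM (log2 fold change -1.02, SE 0.396), so that sensitive library 3 and resistant library 1 were nearly equal. Slfn5, a Schlafen family protein, reached 334, 265 and 234 CPM against 162, 230 and 94.7 CPM (log2 fold change -0.83, SE 0.347), with a narrow gap between the lowest sensitive and the highest resistant library. The remaining 2 genes of this role differed less. Eif2ak2, the double-stranded RNA-dependent kinase PKR that halts translation, had 64.1, 41.8 and 60.1 CPM against 50.2, 60.5 and 36.5 CPM, fully overlapping ranges (log2 fold change -0.22, SE 0.250), and Slfn8 had a log2 fold change of -0.53 (SE 0.315).

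**Figure D2:**
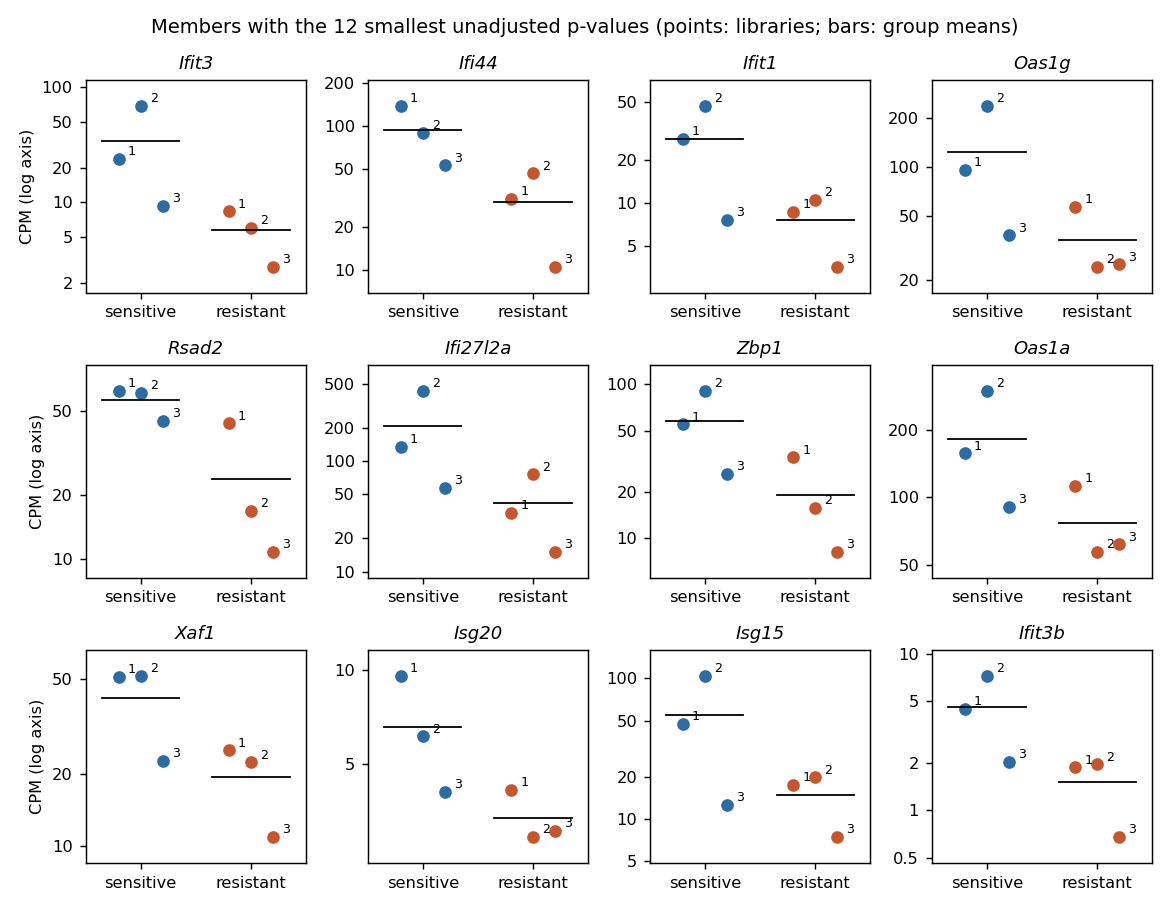
CPM (log axis) in each library of the 12 genes with the smallest unadjusted p, with points numbered by replicate and horizontal bars for the group means. In each of the 12 genes sensitive library 1 or 2 is the highest, and sensitive library 3 lies near or within the resistant range.

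The oligoadenylate synthetases make the second messenger that activates RNase L, which cleaves RNA. Of the 6 genes, 3 had an unadjusted p under 0.05, 0 had separated groups, and the median log2 fold change was -1.15. Oas1g (chromosome 5, 120876142 to 120887613) was measured at 95.6, 238 and 37.8 CPM in sensitive and 56.5, 24.2 and 25.1 CPM in resistant libraries (log2 fold change -1.96, SE 0.715). Oas1a gave 157, 299 and 90.9 CPM against 112, 57.1 and 61.8 CPM (log2 fold change -1.37, SE 0.509). In both, sensitive library 2 alone was far above the others. These 2 genes are near copies, and 40.9% of the 100-base windows of Oas1a occur in Oas1g as well. Oasl2 had a log2 fold change of -1.25 (SE 0.511). Oas3 stood at 271, 318 and 81.6 CPM against 145, 154 and 48.5 CPM (log2 fold change -1.04, SE 0.615) and Oas2 at 122, 73.1 and 57.0 CPM against 91.6, 74.5 and 36.7 CPM (-0.37, SE 0.388), with overlapping groups in each. Oasl1, known in mice as a brake on the translation of Irf7, had a log2 fold change of -0.83 (SE 0.530).

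Of the dynamin-like GTPases and nucleotide enzymes, 2 of 5 had an unadjusted p under 0.05 and the median log2 fold change was -1.33. Rsad2 (viperin, chromosome 12, 26442746 to 26456452) converts CTP into a chain terminator of viral polymerases. It stood at 62.5, 61.1 and 45.0 CPM in sensitive and 43.9, 16.9 and 10.8 CPM in resistant libraries (means 56.2 ± 9.75 and 23.8 ± 17.6 CPM, SD, n = 3). The sensitive libraries were close together here and the spread lay in the resistant group (log2 fold change -1.33, SE 0.493). Mx1, a dynamin-like GTPase, had 43.8, 38.6 and 15.2 CPM against 15.3, 16.1 and 3.69 CPM (log2 fold change -1.55, SE 0.622), and its paralog Mx2 had a log2 fold change of -1.33 (SE 0.761). Cmpk2, the nucleotide kinase encoded beside Rsad2, and Samd9l had values of -0.73 (SE 0.420) and -0.46 (SE 0.494).

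The genes of ISG15, ubiquitin and ADP-ribose conjugation had a median log2 fold change of -0.31, with 1 of 8 genes at an unadjusted p under 0.05, and Isg15 and Usp18 stood apart from the other 6 genes with larger differences. Isg15 (chromosome 4, 156199424 to 156200818), the ubiquitin-like protein that interferon attaches to other proteins, had 47.2, 104 and 12.6 CPM in sensitive and 17.6, 19.8 and 7.44 CPM in resistant libraries (log2 fold change -2.00, SE 0.778). Usp18, which removes Isg15 and also damps signaling at the receptor, had 60.5, 88.0 and 18.1 CPM against 28.9, 33.3 and 9.62 CPM (-1.32, SE 0.674). In both, sensitive libraries 1 and 2 were above all resistant ones and sensitive library 3 was not. Parp14, an ADP-ribosyltransferase, had 186, 100 and 137 CPM against 129, 121 and 94.7 CPM (log2 fold change -0.34, SE 0.233). The ubiquitin ligase Dtx3l and its partner Parp9 had values of -0.28 (SE 0.307) and -0.33 (SE 0.298), and Herc6, the main ligase of Isg15 in mice, of -0.07 (SE 0.267). Trim30a stood at 198, 87.3 and 132 CPM against 135, 162 and 108 CPM (log2 fold change -0.07, SE 0.291). Trim25, a ubiquitin ligase that acts on the RNA sensor Ddx58, stood at 308, 147 and 267 CPM against 310, 277 and 248 CPM. Its log2 fold change was 0.17 (SE 0.254), and it was -0.04 without sensitive replicate 2, where it is lowest.

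None of the 3 transcription factor genes, which carry the response itself, had an unadjusted p under 0.05. Irf7, the amplifier of IFN-α production, had the highest mean CPM of the 48, at 520, 646 and 264 CPM in sensitive and 327, 450 and 139 CPM in resistant libraries (log2 fold change -0.73, SE 0.516). Stat2 had 154, 105 and 99.6 CPM against 121, 86.4 and 54.6 CPM (-0.52, SE 0.307), and Irf9 115, 90.6 and 80.9 CPM against 92.4, 89.0 and 46.8 CPM (-0.39, SE 0.295). In all 3 genes resistant library 3 was the lowest and the groups overlapped. Resistant library 1 lay above sensitive library 3 in all 3, and resistant library 2 did so for Irf7 and Irf9.

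The 4 RNA helicase sensors also had 0 genes under this level, with a median log2 fold change of -0.49. Ddx58 (RIG-I), which recognizes RNA with a 5′ triphosphate, stood at 87.5, 52.2 and 50.0 CPM against 54.9, 63.6 and 39.7 CPM (-0.31, SE 0.277). Ifih1 (MDA5), which binds long double-stranded RNA, stood at 77.6, 53.4 and 53.9 CPM against 52.8, 54.1 and 43.4 CPM (-0.35, SE 0.207). For both, sensitive library 1 was the highest and resistant library 3 the lowest, and the other 4 libraries lay between 50.0 and 63.6 CPM. Dhx58 (LGP2) and Ddx60 had log2 fold changes of -0.70 (SE 0.358) and -0.63 (SE 0.382).

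For the p200 and nuclear proteins the median was -0.67 and 0 of 4 genes had an unadjusted p under 0.05. Ifi204, a DNA-binding p200 protein, had 150, 141 and 70.9 CPM in sensitive and 117, 67.9 and 58.1 CPM in resistant libraries (-0.66, SE 0.377). Sp100, a component of nuclear bodies, was separated between the groups, at 174, 130 and 113 CPM against 106, 108 and 57.9 CPM (-0.68, SE 0.293). Ifi203 and Phf11d had log2 fold changes of -0.77 (SE 0.436) and -0.22 (SE 0.401). Both membrane restriction factors overlapped between the groups. Ifitm3, which blocks fusion of viruses in endosomes, had 360, 329 and 214 CPM against 179, 306 and 149 CPM (-0.57, SE 0.359). Bst2 (tetherin), which holds budding virions at the cell surface, had 198, 396 and 158 CPM against 156, 195 and 108 CPM (-0.82, SE 0.449).

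Among the 7 other interferon-stimulated genes, 4 had an unadjusted p under 0.05 and the median log2 fold change was -1.18. Ifi27l2a (chromosome 12, 103442167 to 103443680) had 134, 434 and 57.5 CPM in sensitive and 33.9, 76.2 and 15.1 CPM in resistant libraries (-2.45, SE 0.909). Ifi44 (chromosome 3, 151730922 to 151749960) had 139, 89.9 and 53.3 CPM against 31.3, 46.8 and 10.5 CPM (-1.71, SE 0.572). Xaf1, a proapoptotic partner of XIAP, had 50.8, 51.4 and 22.7 CPM against 25.1, 22.4 and 10.9 CPM (-1.18, SE 0.439). Of these only Ifi44 kept its groups apart. Ifi35 had a log2 fold change of -1.63 (SE 0.672), with 180 CPM in sensitive library 2 and 25.4 to 51.7 CPM in the other 5 libraries. Tor3a, a torsin ATPase of the endoplasmic reticulum, had the smallest difference of the 8 genes separated after TMM scaling, at 152, 148 and 133 CPM against 140, 116 and 106 CPM before it (-0.34, SE 0.196). Rtp4 and Epsti1 had values of -0.88 (SE 0.632) and -0.86 (SE 0.435).

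**Figure D3:**
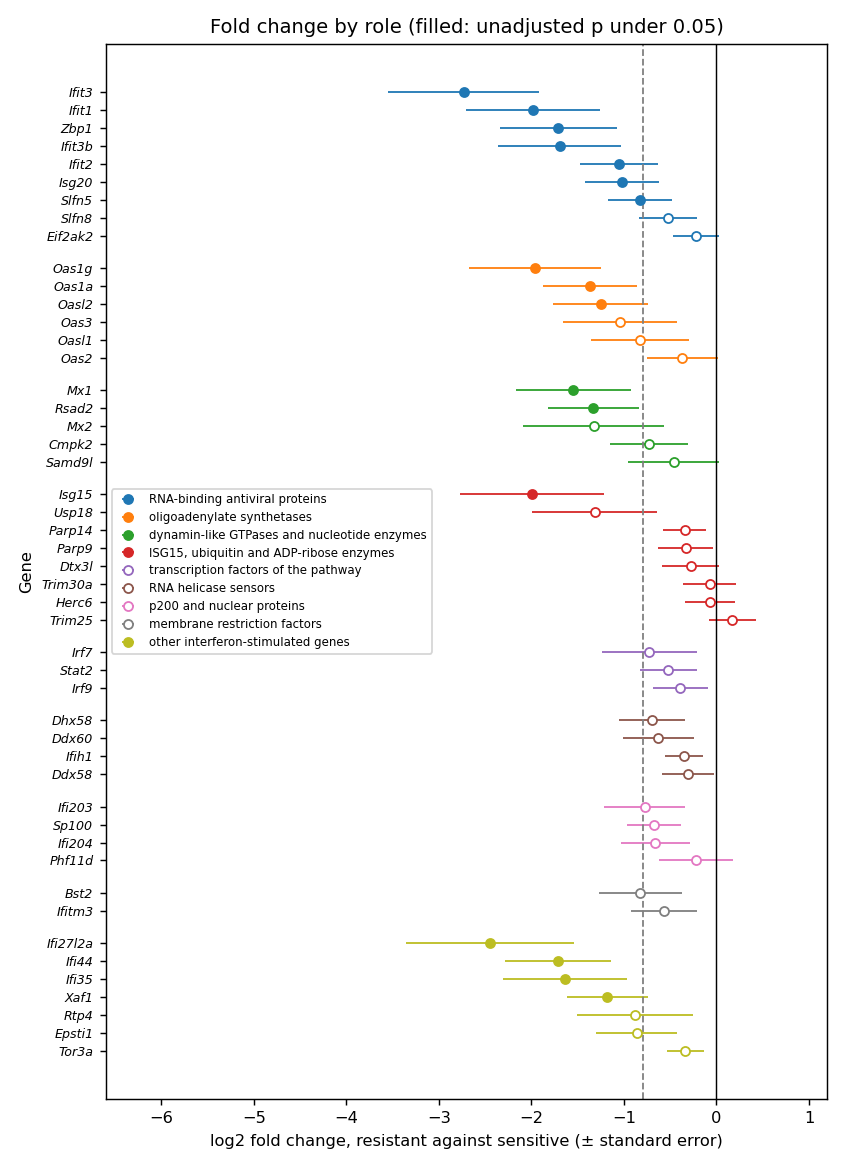
Fitted log2 fold change of each of the 48 genes, resistant against sensitive (horizontal axis, points with bars of ± 1 standard error), by role (colors). Filled points have an unadjusted p under 0.05, and the dashed line marks the median of -0.80; all points but that of Trim25 lie left of 0.

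Per transcript length, in the FPKM that the authors deposited, the order of levels differed from that of CPM. Ifitm3 was the highest, with a mean over the 6 libraries of 378 FPKM, followed by Ifi27l2a with 270, Bst2 with 223, Irf7 with 104 and Oas1a with 68.8. The lowest were Ifit3b with 1.52 FPKM, Herc6 with 1.55 and Isg20 with 2.68.

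Gene length also ran with the difference between the high sensitive libraries. Pearson's r of log2 length with the log2 difference of sensitive library 2 and sensitive library 1 was -0.66 across the 48 genes and -0.26 across all tested genes, which are not independent replicates. Sensitive library 2 was above sensitive library 1 in 13 of the 16 shortest genes (463 to 3272 bases), in 8 of the 16 of middle length and in 2 of the 16 longest (5386 to 9306 bases). The group difference followed the same order, with median log2 fold changes of -1.34, -0.69 and -0.49. At an unadjusted p under 0.05 there were 9, 5 and 3 genes, against 3.08% of all tested genes of any length. After a trend on gene length was removed from each library, a step chosen after the data were seen, the median over the 48 genes was -0.77. In that fit 18 genes had an unadjusted p under 0.05, against 3.26% of all tested genes. Sensitive library 2 also stood apart over the whole transcriptome, with r of 0.860 to 0.901 to the other libraries against 0.954 to 0.974 among those. Without it, all 48 genes had a lower fitted level in the resistant group and the median was -0.67. In that fit 6 genes had an unadjusted p under 0.05, against 3.96% of all tested genes.

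**Figure D4:**
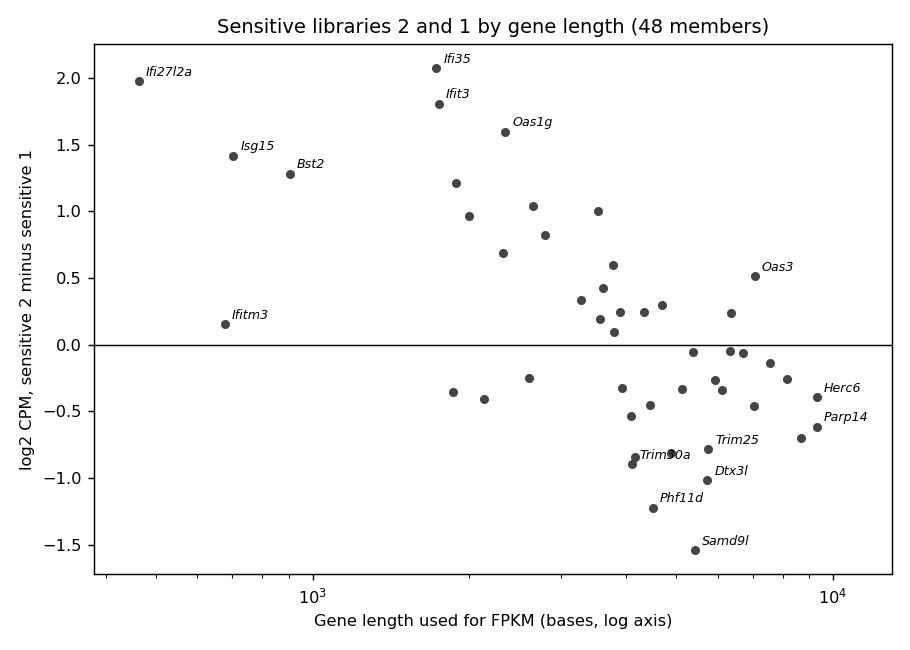
Log2 CPM (TMM-scaled) of sensitive library 2 minus sensitive library 1 (vertical axis) against gene length in bases (horizontal log axis) for the 48 genes, each a point. Of the 16 shortest genes 13 lie above 0, and of the 16 longest 2 do.

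The steps before the interferon-stimulated genes were read from lists of the pathway. The interferons themselves were at or near the limit of counting. Of 21 interferon genes, 16 had 0 counts in every library, which allows up to 3 counts in each, and 0 passed the filter. Ifnz (IFN-ζ), the highest in mean CPM, had 0 to 2 counts in a library. Ifnb1, which encodes IFN-β and was named after its values were seen, had 4 counts in sensitive library 1 and 0 in the other 5 libraries. Over all 21 genes the sum was at most 0.306 CPM in a library, so a difference was not detectable at this depth.

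The receptor and its kinases were read next. The median log2 fold change of 11 receptor and JAK-STAT genes was -0.06. Jak1, the highest of them in mean CPM though not in FPKM, had a log2 fold change of 0.11 (SE 0.256), which was -0.12 without sensitive replicate 2. The receptor chains, named after their values were seen, were at -0.06 (SE 0.228) for Ifnar1 and -0.11 (SE 0.238) for Ifnar2. Of 17 genes of nucleic acid sensing and interferon induction 0 had an unadjusted p under 0.05, with a median of 0.01, and Unc93b1, the chaperone of nucleic acid-sensing Toll-like receptors, was at -0.06 (SE 0.225). Of 8 tested negative regulators, 0 did, and Samhd1, which depletes nucleotides, was at -0.39 (SE 0.298).

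Genes that answer mainly to IFN-γ were read beside the type I group. All 15 interferon-gamma inducible GTPases had a lower fitted level in the resistant group, against 49.2% of all tested genes. Their median log2 fold change was -0.66. At an unadjusted p under 0.05 there were 4 of them (26.7%), against 3.08% of all tested genes. Those 4 were Iigp1 (-0.92, SE 0.322), Irgm1 (-0.67, SE 0.238), Igtp (-0.71, SE 0.260) and Ifi47 (-0.93, SE 0.377), which act on the vacuoles of intracellular pathogens. Iigp1 had 18.0, 14.5 and 11.5 CPM against 10.2, 8.65 and 5.46 CPM, with separated groups. The summed level of the 15 genes was ordered differently over the libraries, at 474, 335 and 492 CPM in sensitive and 478, 263 and 207 CPM in resistant libraries. Sensitive library 3, low for the type I group, was the highest here. An ISRE core was found in the promoter windows of 9 of 10 of these genes and a GAS element in 6 of 10.

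The 17 genes of MHC class I presentation were likewise all lower in the fit, against 49.2% of all tested genes, with a median of -0.59. At an unadjusted p under 0.05 there was 1 gene (5.88%), against 3.08% of all tested genes. That gene was Psmb8, an immunoproteasome subunit, at 143, 368 and 147 CPM against 152, 87.8 and 68.7 CPM (-1.23, SE 0.511). H2-D1, a classical class I heavy chain and the highest of the list in mean CPM, though below B2m in FPKM, was at -0.29 (SE 0.314). Their ISRE core share was 4 of 15 genes with a window.

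The 48 genes were also divided by the motif, and the difference between the sets was not tested. The median log2 fold change was -0.82 over the 19 genes with an ISRE core in the window and -0.73 over the 17 whose window held none, with ranges of -2.73 to -0.07 and -1.71 to 0.17. The other 12 genes, Mx1, Usp18 and Zbp1 among them, had no window. A missing match says only that these letters are not in the window.

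Markers of other cell types were read in the same libraries. The 12 neutrophil markers summed to 5347, 7000 and 649 CPM in sensitive and 2163, 1564 and 339 CPM in resistant libraries. Sensitive libraries 1 and 2 were thus highest and resistant library 3 lowest, as for the interferon-stimulated genes. All 12 had a lower fitted level in the resistant group, against 49.2% of all tested genes, with a median log2 fold change of -1.68. An unadjusted p under 0.05 was found for 2 of them (16.7%), against 3.08% of all tested genes. Of the 12, 0 were at 0 throughout. Ly6g, a surface protein specific to neutrophils, had 244, 250 and 8 counts in sensitive and 56, 13 and 5 counts in resistant libraries. The part of these cells in the difference of the interferon-stimulated genes was not tested.

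The 16 macrophage and Kupffer cell markers summed to 24982, 37327 and 38280 CPM in sensitive and 29360, 28592 and 31862 CPM in resistant libraries, a sum ordered unlike that of the interferon-stimulated genes. Of these markers 8 had a lower fitted level in the resistant group, with a median log2 fold change of -0.02. Only Timd4 had an unadjusted p under 0.05 (log2 fold change -1.70, SE 0.663). Clec4f, restricted to Kupffer cells in mice, was at 1750 to 4875 CPM in these libraries. All 15 LSEC markers and all 13 pan-endothelial markers were detected, though some were low, such as the LSEC marker Clec4g at 0.809 to 5.69 CPM. The pan-endothelial markers summed to 82.2 CPM in resistant library 2 against 286 to 532 CPM elsewhere. Of the 13 pan-endothelial markers 12 had a lower fitted level in the resistant group, 5 (38.5%) with an unadjusted p under 0.05. Their median log2 fold change was -1.20. Of the 15 LSEC markers 11 were lower, 1 of them (6.67%) at this level, with a median of -0.33. Of all tested genes 49.2% were lower and 3.08% were under this level. The part of the cells with these markers in the difference of the interferon-stimulated genes was not tested either. Of the markers of plasmacytoid dendritic cells, which are specialized producers of type I interferon, Siglech had at most 1 count in a library, and Bst2 is also one of the 48 genes. Without Bst2 the list summed to 39.8 to 59.3 CPM in sensitive and 43.5 to 52.1 CPM in resistant libraries. Of 12 lymphocyte and NK cell markers 3 passed the filter, and their list summed to 11.9 to 32.7 CPM. Hepatocyte markers summed to 31.9 to 160 CPM, stellate cell and fibroblast markers to 88.7 to 363 CPM and erythroid markers to 4.43 to 11.0 CPM in sensitive and 0.253 to 1.35 CPM in resistant libraries.

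**Figure D5:**
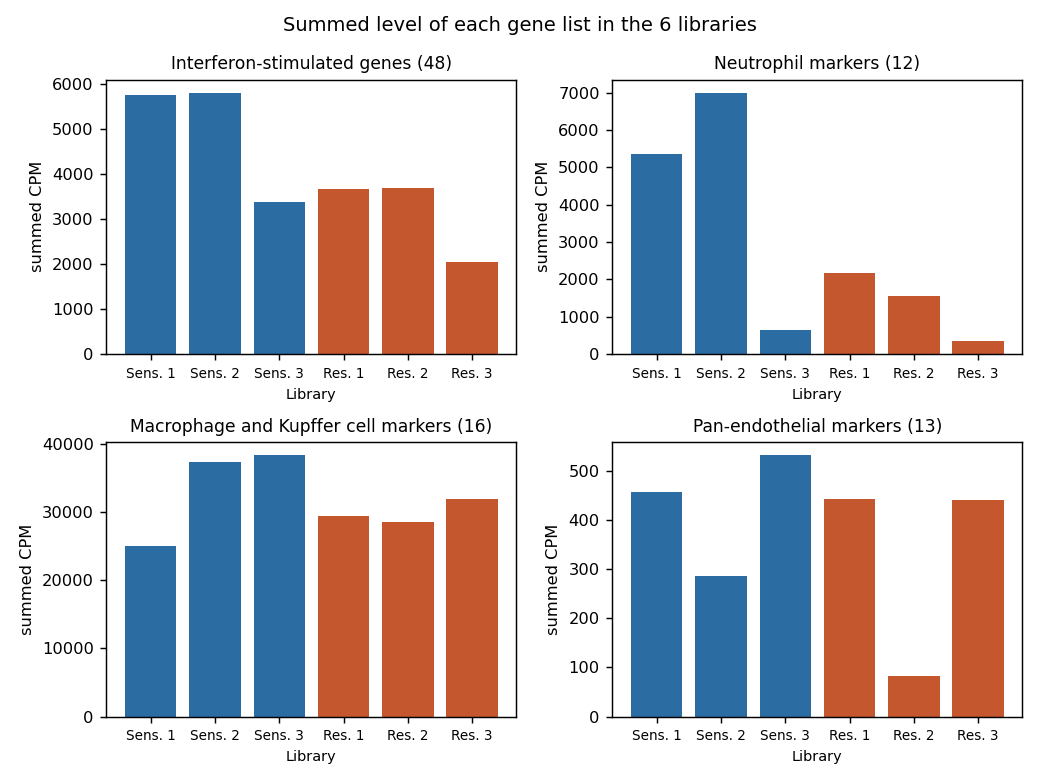
Summed CPM (vertical axis, from 0) of the 48 interferon-stimulated genes and of 3 marker lists in the 6 libraries (horizontal axis), 1 bar per library, sensitive in blue and resistant in orange. The interferon-stimulated genes and the neutrophil markers are both highest in sensitive libraries 1 and 2 and lowest in resistant library 3, and the macrophage and pan-endothelial markers are not.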

How the data were processed

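RNA-seq counts of 6 libraries were analysed, 3 sensitive and 3 resistant, grouped by the sample titles. Per the labels, ribosomal RNA-depleted RNA was sequenced, and the methods also name poly(A) selection. According to the submitters' processing notes, the authors aligned reads with HISAT2 2.0.5 and counted them with featureCounts 1.5.0-p3, and the notes list mm9. The authors deposited whole-number counts without normalization and FPKM values, which divide these counts by the library total and by 1 length per gene. A further deposited table holds the authors' own fold changes and p-values and was not used.

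The counts were filtered with filterByExpr, normalized with TMM and compared in edgeR 4.0.16 (R 4.3.3) with the quasi-likelihood test, two-sided, with no covariate and Benjamini-Hochberg adjustment over all tested genes. Standard errors are those implied by the F statistic. DESeq2 1.42.0, limma 3.58.1, other scalings and filters, log2(FPKM + 1), a replicate block and leaving out each library were alternatives. The biological coefficient of variation was 42.2%. The comparison was tested on simulated data. Gene positions are from GENCODE M21 (GRCm38), matched by Ensembl identifier. The genes, their roles and the other lists were chosen with earlier results of these data known. Values in every library were given for fixed anchors of each role, the 10 genes highest in CPM and the 12 with the smallest p, and other values printed were chosen after they were seen. For pathway lists, the highest gene and those with an unadjusted p under 0.05 were named, up to 4. A gene of the receptor and JAK-STAT list is not reported here.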

Additional observations from a re-analysis of the deposited data

How the results depend on the processing

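The 48 genes kept 0 adjusted calls in every alternative. At an unadjusted p under 0.05 the count, 17 as reported, was 12 to 19 under the other scalings, tools and filters. With limma on log2(FPKM + 1) it was 10. Of all tested genes 2.44% (library totals alone) to 5.98% (no filter on low counts) were under this level in these settings. The count ranged from 2 to 27 when a single library was left out. In the fits that gave 2 and 27, 1.03% and 6.53% of all tested genes were under this level. Genes with separated groups, 8 as reported, were 6 to 9 under other scalings, for which the share over all tested genes was not computed. They were 8 to 34 when a library was left out, where the number could not fall below 8. The median log2 fold change stayed between -0.64 and -0.83 under the other scalings, tools and filters and between -0.48 and -1.04 when a library was left out, and the summed CPM difference between -0.44 and -0.88 in log2 when a library was left out. With the replicate block, 25 genes had an unadjusted p under 0.05, against 3.02% of all tested genes, and 0 an adjusted one. The deviations of same-numbered libraries correlated at -0.00093, 0.034 and 0.194 and 3 of 6 libraries were closest to their own number. With so few pairs these values cannot decide whether same-numbered libraries shared an animal, day or batch, and the labels do not say.

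Of 720 fitted values of the 48 genes under alternatives, 11 changed sign. Herc6 was at 0.0027 without a filter and at 0.0033 in log2(FPKM + 1), and Trim30a at 0.013 with log2(FPKM + 1). When a library was left out, Herc6 ranged from -0.20 to 0.13, Trim30a from -0.28 to 0.19, Phf11d from -0.47 to 0.18, Samd9l from -0.76 to 0.067 and Trim25 from -0.041 to 0.32. The values of Herc6, Trim30a, Phf11d and Samd9l above 0 arose without sensitive replicate 1 and, except for Samd9l, without resistant replicate 3, and that of Trim25 below 0 without sensitive replicate 2. Of 10 named pathway genes, Unc93b1 was at 0.0066 with library totals alone, 0.011 with no filter and 0.0057 with log2(FPKM + 1), and ranged from -0.13 to 0.074 when a library was left out, and Jak1 ranged from -0.12 to 0.24. The cause was not tested. Depth was at least 17599326 counts in every library, whereas the coefficient of variation between libraries of a group was 42.2% with 3 libraries a group.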
